A study of Mus musculus with 8 samples.

Results

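Chromatin accessibility of CD48bright cells was set against that of CD48dim cells in a pair of mouse myeloid progenitor populations that share every other surface marker of their sort. The CD48bright population, called C10, was sorted as KIT+ CD16/32- CD34dim CD41+ CD9+ CD48bright. The CD48dim population, called C18, was sorted as KIT+ CD16/32- CD34dim CD41+ CD9+ CD48dim. Each had 2 libraries, picked by the sample titles, so that the comparison took 4 of the 8 libraries of the series. Per the labels, all cells were primary bone marrow progenitors of wild-type C57BL/6 mice. The other populations, used for the spread between libraries and as context, were C2 (KIT+ CD16/32- CD34bright CD41+ CD9+) and C13 (KIT+ CD16/32- CD34dim CD41- CD9-). The series text names partly different clusters, so the names here follow the titles and the sorted phenotype. Age and sex of the mice are not given in the labels, and nothing says that the 2 libraries of each came from different mice. A p-value below therefore sets a difference against the spread between replicate libraries, pooled over all 8, and that spread could be technical.

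Common myeloid progenitors give rise to granulocytes, monocytes, red cells and megakaryocytes, and are a mixture of cells already leaning to one or another of these fates. KIT is the receptor for stem cell factor, CD34 a sialomucin of early progenitors, CD41 the integrin subunit that platelets use to bind fibrinogen, CD9 a tetraspanin of megakaryocytes and other cells, and CD48 a receptor of the SLAM family used to divide stem and progenitor cells. ATAC-seq marks open DNA with a transposase. Its peaks fall at gene starts, most of which are open in many cell types, and at distal elements such as enhancers, which differ more between cell types. In a sorted bulk population, fewer cells with an open site and less openness per cell cannot be told apart.

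The authors deposited 2 peak lists per library, from F-Seq and from HOMER. Every F-Seq list held 100000 peaks, while the HOMER lists held 235812 and 260118 peaks in C10, against 72379 and 83548 in C18. The lists carry no read counts and the depth of the libraries is unknown. Each library was therefore read only through the order of its 20000 strongest peaks, where rank 1 is the strongest. The 20000 strongest F-Seq peaks had a median width of 1394 and 1439 bases in C10, against 966 and 1240 bases in C18, so that the C18 lists, those of replicate 1 above all, covered less sequence (31.6 and 32.6 Mb in C10, 21.9 and 28.0 Mb in C18). The C18 libraries also stood apart at the very top of their lists. Of the 100 strongest F-Seq peaks, 1 and 2 had no HOMER peak of the same library in C10, against 23 and 24 in C18. Over all 20000 the numbers were 36 and 33 in C10, against 448 and 391 in C18. The full HOMER list of each library was searched here, and the part of its length in these numbers was not tested. Results that rest on F-Seq peaks without a HOMER peak are given with and without them.

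The strongest peaks of C10 lay away from gene starts more often than those of C18. Peaks within 1 kb of an annotated start made up 29.3% and 28.8% of the 20000 strongest F-Seq peaks in C10, against 35.4% and 36.3% in C18. Those over 10 kb from a start made up 58.1% and 57.8% in C10, against 50.3% and 49.4% in C18. The shares of both C10 libraries lay outside those of both C18 libraries, although with 2 libraries against 2 an exact two-sided permutation test cannot give a p below 0.333. HOMER lists differed in the same direction, with 39.4% and 37.2% of the 20000 strongest peaks at starts in C10, against 48.8% and 53.9% in C18. For context, the F-Seq shares were 34.3% and 35.0% in C2 and 27.6% and 27.2% in C13. With F-Seq the gap depended on rank. Among ranks 1 to 1000 the F-Seq shares were 65.4% and 63.6% in C10, against 76.7% and 78.8% in C18, and among ranks 1001 to 5000 they were 43.1% and 42.7% in C10, against 65.3% and 66.3% in C18. Among ranks 10001 to 20000 they were 20.1% and 19.7% in C10, against 18.6% and 18.3% in C18. With HOMER the order did not turn in that class, at 31.3% and 29.7% in C10, against 34.3% and 40.5% in C18. Starts on chromosome 18 were not used here. Of 21373 loci elsewhere, 17491 (81.8%) had a start that could be used, here and for all distances below. A peak at the start of another gene was placed by its distance to some other start, and can count as distal.

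**Figure D1:**
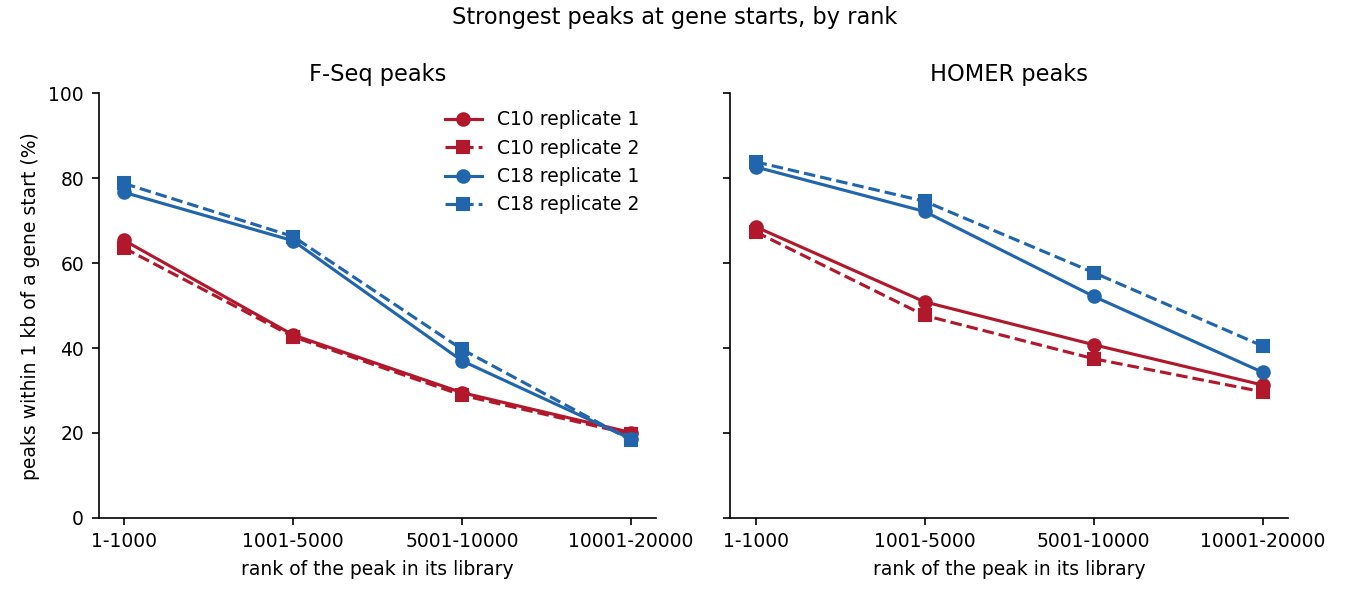
Share of peaks within 1 kb of an annotated gene start (y axis, percent) in 4 classes of peak rank (x axis, 1 is the strongest), for F-Seq and HOMER lists; each line is 1 library of C10 (red) or C18 (blue). The C10 lines lie under the C18 lines down to rank 10000 with both callers, by most among ranks 1001 to 5000 (43.1% and 42.7% in C10, 65.3% and 66.3% in C18 with F-Seq).

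The populations shared fewer bases with each other than with their own replicates. The Jaccard index, the share of all bases in either list's peaks that lay in both, was 0.701 between the C10 libraries, 0.508 between the C18 libraries and 0.416 on average between C10 and C18 libraries, with a range of 0.405 to 0.43 over the 4 pairs. Both populations lay nearer to CD34bright C2 than to each other, at a mean of 0.573 for C10 with C2 and 0.478 for C18 with C2. The CD41- CD9- population C13 stood nearer to C10, at 0.51, than to C18, at 0.341. HOMER lists had 0.593 within C10, 0.425 within C18 and 0.339 between them. The widths of the lists enter these indices, and their part was not tested.

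Merging the 4 lists gave 30365 regions, of which 11063 (36.4%) were among the 20000 strongest peaks of all 4 libraries. Regions of C10 alone, in both C10 lists and in neither C18 list, numbered 3535 (11.6%), and regions of C18 alone numbered 2774 (9.14%). They lay in different places. Of the regions of C10 alone, 5.22% lay within 1 kb of a gene start and 80.5% over 10 kb away, against 41.4% and 43.7% of those of C18 alone. Regions of all 4 libraries had 45.1% and 44.1%, so that those of C18 alone lay near them and those of C10 alone did not. In all, 36.6% of the regions of C10 alone, 15.2% of those of C18 alone and 14.8% of those of all 4 libraries lay in no gene locus. A locus is a protein-coding gene body extended by 10 kb to each side. Most regions of either population alone had a weaker peak in the other population. In the full lists of 100000 peaks, 85.1% of the regions of C10 alone had a weaker peak in both C18 libraries, and 2.38% had one in neither. Likewise 85.6% of the regions of C18 alone had a weaker peak in both C10 libraries, and 11.8% in neither. HOMER supported 99.9% of the regions of C10 alone in both C10 libraries, and 88.2% of those of C18 alone in both C18 libraries, with 283 regions of C18 alone supported in neither C18 library. With HOMER lists in place of F-Seq the numbers were 3651 for C10 alone, of which 9.29% lay at gene starts, and 2554 for C18 alone, of which 64.3% did. Of the HOMER regions of all 4 libraries, 55.9% lay at gene starts. The shares with a peak in neither library of the other population were the other way round with HOMER, at 7.09% for C10 alone and 1.02% for C18 alone. The full HOMER lists, much shorter in C18, were searched for this. The part of list length in any of these HOMER shares was not tested.

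The other populations held these regions unequally. Of the regions of C10 alone, 53.6% were among the 20000 strongest peaks of both C13 libraries, against 3.93% of the regions of C18 alone. For C2 the shares were 41.2% for C10 alone and 39.9% for C18 alone. Regions of C10 alone were thus far more often shared with the CD41- CD9- cells than regions of C18 alone, while both kinds were shared with the CD34bright cells to a like extent.

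**Figure D2:**
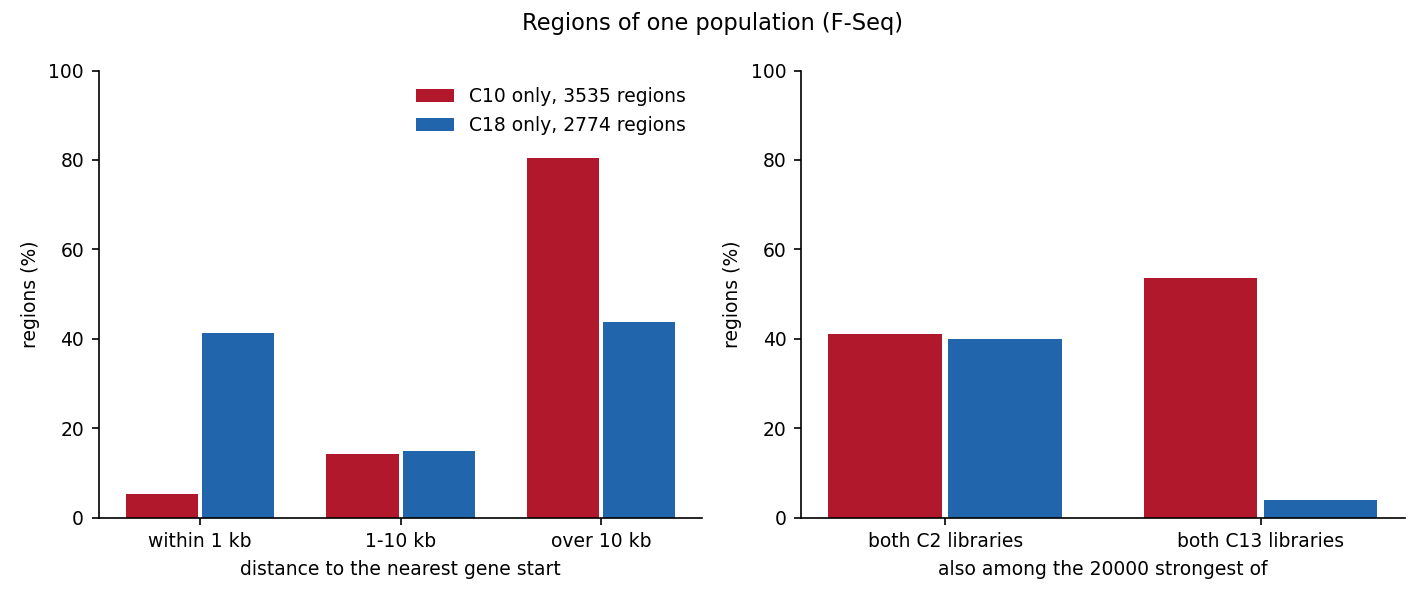
Regions in both libraries of C10 and neither of C18 (red, 3535 regions) and in both libraries of C18 and neither of C10 (blue, 2774 regions), F-Seq; y axes are percent of these regions. The left bars show the distance to the nearest gene start, with 80.5% of the regions of C10 alone and 43.7% of those of C18 alone over 10 kb away; the right bars show how many were also among the 20000 strongest peaks of both libraries of C2 or of C13, with 53.6% and 3.93% for C13.

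Each of the 10 regions of C10 alone with the strongest mean F-Seq rank had a HOMER peak in both C10 libraries. The first lay beside Trpa1, an ion channel gene, at chr1:14924468-14925911 (mm10). It ranked 1534 and 1700 in C10, against 38683 in C18 replicate 1 and no listed peak in C18 replicate 2, and it ranked 188 and 185 in C13. Another at chr2:11635102-11637818 lay in the locus of Il2ra, the alpha chain of the interleukin 2 receptor, and ranked 1942 and 2203 in C10, against 23328 and 21103 in C18. It too was far stronger in C13, at 260 and 52. One at chr2:145187946-145189604, in the locus of the potassium-dependent sodium and calcium exchanger gene Slc24a3, went the other way in C13. It ranked 2104 and 1983 in C10, against 31973 and 22418 in C18, with 2293 and 2213 in C2 but 21492 and 24060 in C13.

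None of the 10 regions of C18 alone with the strongest mean F-Seq rank had a HOMER peak in either C18 library. They were 614 to 789 bases wide. The strongest of all, at chrX:61852623-61853302 and in no locus, ranked 46455 and 33726 in C10, against 1 in both C18 libraries. The next, at chr9:91900799-91901587, ranked 62850 and 29509 in C10, against 2 in both C18 libraries. A call by HOMER changes which regions lead. The 10 strongest regions of C18 alone from HOMER all lay within 1 kb of a gene start, and F-Seq found each in both C18 libraries. The first was at the start of Eif1, a translation initiation factor gene, at chr11:100319775-100319926, with HOMER ranks of 42751 and 43342.5 in C10, against 1900.5 and 780 in C18 (ties share a mean rank). The HOMER regions of C10 alone included 1 inside Cd34 at chr1:194943533-194943779, with ranks of 868.5 and 1616 in C10, against 27348 and 33534 in C18.

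For each of the loci, the rank of its best peak among the 20000 strongest was taken on a log2 scale, and a locus with none was set to the rank just after 20000. A difference of 1 in C10 minus C18 means that the rank number in C10 was 2 times smaller, and a positive one that the locus stood nearer the top in C10. Below, "higher in C10" means nearer the top. A locus was called where limma, fitted over all 8 libraries, gave a Benjamini-Hochberg adjusted p under 0.05. With F-Seq, 14501 loci were tested, of which 1961 (13.5%) were higher and 4907 (33.8%) lower in C10. The median difference over all loci tested was -0.32, so a difference near that value is that of a typical locus. When loci were instead ranked among loci, which removes this shift, 2280 (19.9%) were higher and 2431 (21.3%) lower of 11432 tested. Higher ones then made up 48.4% of the calls, against 28.6% before. With HOMER, 1536 (12%) of 12810 loci were higher and 3692 (28.8%) lower, with a median of -0.30. Ranking among loci gave 1911 (16.7%) higher and 2097 (18.3%) lower with HOMER. Both callers, which share their reads and are not independent, called 1397 of the 12803 loci tested with both higher (10.9%) and 3551 lower (27.7%). A locus called higher with F-Seq was never called lower with HOMER, and 4 called lower with F-Seq were called higher with HOMER. Without F-Seq peaks that lack a HOMER peak, 1870 loci were higher and 5073 lower. The counts leaned most on C10 replicate 1. Without it, 1071 loci were higher and 3086 lower with F-Seq, and 768 higher and 1938 lower with HOMER. The number higher with HOMER was also 878 without C10 replicate 2 and 859 without C18 replicate 2.

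Among the genes of the sort markers, Cd34 was the one called higher in C10, although both populations had been sorted as CD34dim. Its best F-Seq peak ranked 974 and 1504 in C10, against 9181 and 11989 in C18. The groups did not overlap, and both C10 libraries ranked near C2 (1883 and 1771) and C13 (1202 and 2571). The difference was 3.12 (SE 0.419, adjusted p = 0.000842) with F-Seq and 3.64 (SE 0.507, adjusted p = 0.00183) with HOMER. The best C10 peak lay inside the gene, at chr1:194941676-194944280 in replicate 1 and at chr1:194937964-194944281 in replicate 2, where it also took in the gene start. In C18 the best peak was at the start in replicate 2 (chr1:194938276-194940158) and beyond the end of the gene in replicate 1 (chr1:194962001-194962736).

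Kit and Itga2b, which encodes CD41, were lower in C10 by about 1 unit with F-Seq. Kit ranked 11121 and 8762 in C10, against 4254 and 5788 in C18, with the best peak of every library at the gene start and a difference of -0.99 (SE 0.284, limma adjusted p = 0.0211). Without C10 replicate 1 the adjusted p of Kit was 0.129 and without C18 replicate 1 it was 0.0822, and with HOMER the difference of -1.08 had an adjusted p of 0.051. Itga2b ranked 15590 and 14854 in C10, against 9259 and 6243 in C18 (difference -1.0, SE 0.241, limma adjusted p = 0.01). That difference came from different peaks, at the gene start in C10 and inside the gene in C18. With HOMER the difference of Itga2b was -0.44 with an adjusted p of 0.0945. Within 1 kb of the start alone the F-Seq difference was 0.39 with an adjusted p of 0.0888, and without C10 replicate 1 the adjusted p was 0.0611. Cd9 ranked 15142 and 17681 in C10, against 13482 and 14527 in C18 (difference -0.23, SE 0.32), and Fcgr3, for CD16, ranked 10626 and 9108 in C10, against 10524 and 5450 in C18 (difference -0.38, SE 0.353). Neither passed the test. Fcgr2b, for CD32, ranked 18298 and 15310 in C10, against 29759 and 21798 in C18, without overlap, but its difference of 0.26 (SE 0.165) did not pass either.

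The locus of Cd48, the marker that separates the populations, carried weak peaks in every library. Its best F-Seq peak ranked 34396 and 24077 in C10, against 24797 and 15746 in C18. The groups overlapped, and the locus was not tested because only 1 of the 8 libraries had a peak there among the 20000 strongest. The best C10 peaks lay at the gene start (chr1:171680877-171682457 in replicate 1), and the best C18 peaks lay inside the gene (chr1:171698898-171699451 in replicate 2). Of the other SLAM loci, Slamf9 was higher in C10, at 2361 and 3532 in C10 against 7384 and 11547 in C18 (difference 1.68, SE 0.356, limma adjusted p = 0.00586). Ly9 and Cd244a were called lower through 1 peak between them that had no HOMER peak in C18, and both dropped out of the tested loci once such peaks were left out.

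**Figure D3:**
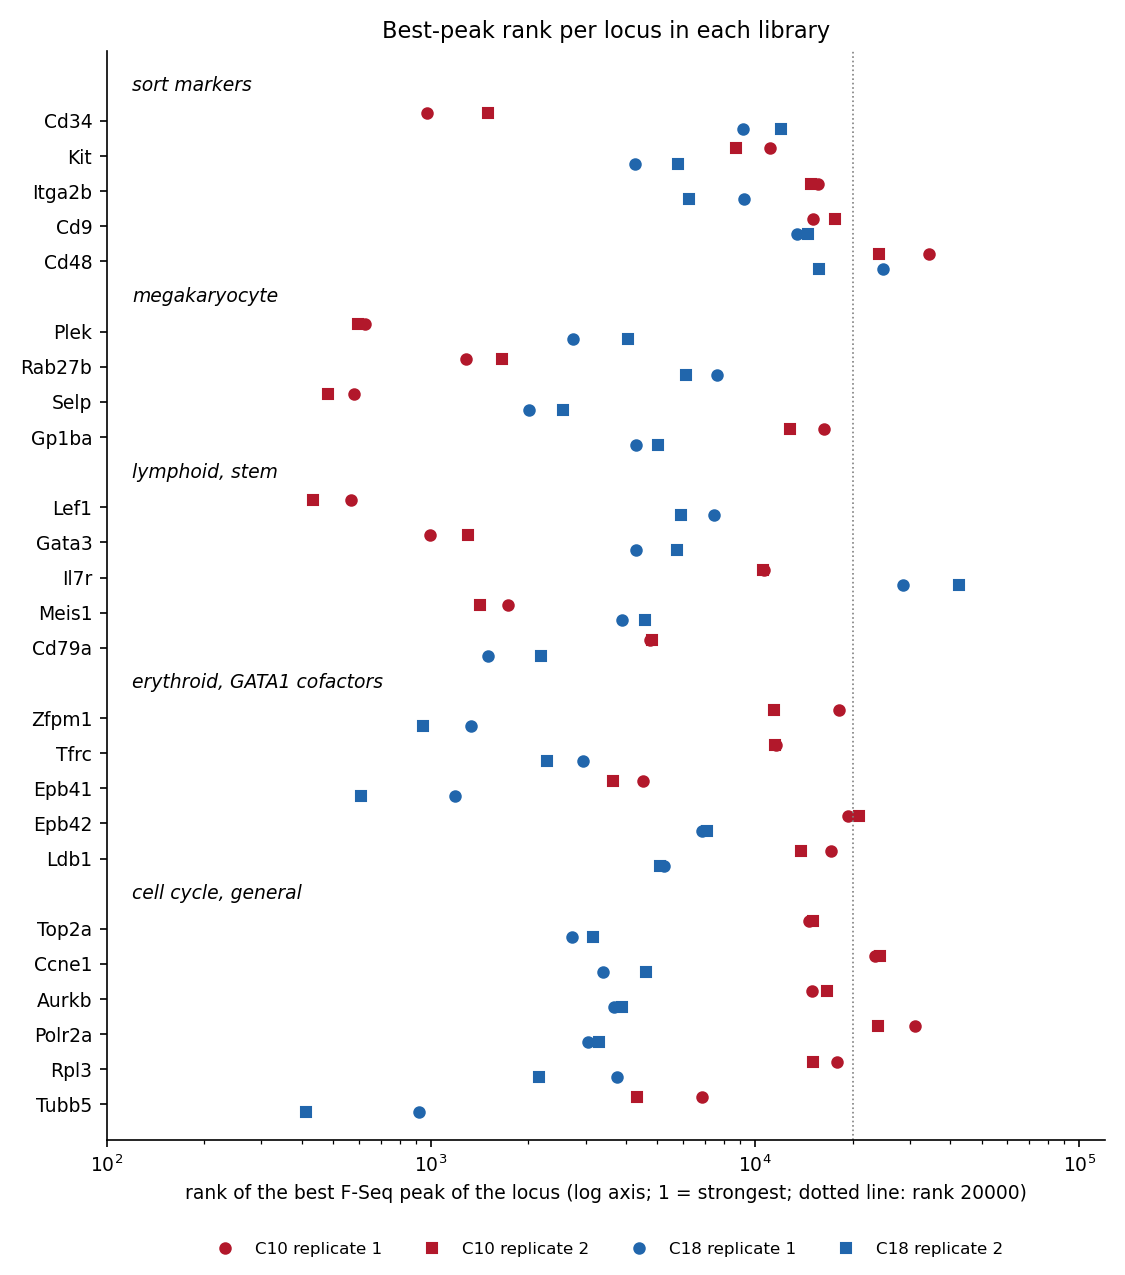
Rank of the best F-Seq peak (x axis, log scale, 1 is the strongest) in each library for named loci; red marks are C10, blue marks C18, circles replicate 1, squares replicate 2, and the dotted line is rank 20000. Cd34, Plek, Rab27b, Selp, Lef1, Gata3, Il7r and Meis1 have both C10 marks left of both C18 marks; the erythroid, cell cycle and general loci have both C10 marks right of both C18 marks; those of Cd48 overlap.

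Of 26 megakaryocyte loci tested, 6 (23.1%) were higher and 4 (15.4%) lower in C10 with F-Seq, beside 13.5% and 33.8% of all loci, and the list median was 0.27. Plek, which encodes the platelet kinase C substrate pleckstrin, ranked 628 and 597 in C10, against 2745 and 4056 in C18. The groups were well apart, with a difference of 2.45 (SE 0.322, limma adjusted p = 0.000776). The best peak of all 4 libraries lay inside the gene, at chr11:17002372-17006265 in C10 replicate 1. With loci extended by 50 kb, Plek had a difference of -0.38. Rab27b, a GTPase gene for platelet granule release, ranked 1283 and 1654 in C10, against 7613 and 6138 in C18 (difference 2.23, SE 0.316, limma adjusted p = 0.00104). Selp encodes P-selectin, an adhesion molecule of platelet granules. It ranked 577 and 481 in C10, against 2001 and 2565 in C18, at the same site inside the gene in all 4 libraries (chr1:164135003-164137000 in C10 replicate 1; difference 2.10, SE 0.329, limma adjusted p = 0.00155). Gp1ba, for the platelet receptor of von Willebrand factor, went the other way, at 16280 and 12852 in C10 against 4297 and 5016 in C18. Its best C18 peak lay beyond the gene and was shared with 4 neighbouring loci, Pfn1 among them, and the call was lost with the gene body alone. HOMER gave 6 higher and 3 lower of 22. The F-Seq count was 4 higher and 2 lower without C10 replicate 1, 4 higher and 4 lower without C10 replicate 2, 4 higher and 5 lower without C18 replicate 1, and 8 higher and 4 lower without C18 replicate 2. With HOMER it was 3 higher and 1 lower without C10 replicate 1, and 3 higher and 4 lower without C18 replicate 1. Ranking among loci gave 7 higher and 2 lower of 17 with F-Seq, beside 19.9% and 21.3% of all loci.

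Lymphoid loci had 8 higher and 3 lower of 20 tested with F-Seq, beside 13.5% higher and 33.8% lower over all loci, and 6 higher and 0 lower of 18 with HOMER, where 2 were lower at an unadjusted p under 0.05. Lef1, a T cell and lymphoid transcription factor gene, ranked 566 and 434 in C10, against 7460 and 5921 in C18. It was stronger still in C13, at 170 and 127. The difference was 3.75 (SE 0.34, limma adjusted p = 0.000311), at 1 site in all 4 libraries about 52.3 kb into the gene (chr3:131207886-131209392 in C10 replicate 1). Gata3, a regulator of T cells and of other lineages, ranked 992 and 1302 in C10, against 4284 and 5748 in C18 (difference 2.13, SE 0.376, limma adjusted p = 0.00265). Il7r, the interleukin 7 receptor of lymphoid progenitors, ranked 10643 and 10576 in C10, against 28569 and 42494 in C18. It was thus among the 20000 strongest in C10 alone of this pair (difference 0.91, SE 0.196, limma adjusted p = 0.00614). That F-Seq call was lost with fewer peaks per library, with distal peaks alone and with ranking among loci. With HOMER the locus of Il7r was not called in the main fit, although some alternatives called it. Cd79a, of the B cell receptor, was lower, at 4726 and 4813 in C10 against 1504 and 2183 in C18, through a peak shared with its neighbour Arhgef1. Without C10 replicate 1 the lymphoid count was 4 higher and 1 lower, and without C10 replicate 2 it was 5 higher and 1 lower. The number higher with HOMER was 2 without C10 replicate 1, 2 without C10 replicate 2 and 3 without C18 replicate 1.

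Stem and multipotent loci had 2 (8.33%) higher and 4 (16.7%) lower of 24 with F-Seq, beside 13.5% and 33.8% of all loci. Their median was -0.03. HOMER gave 4 (20%) higher and 1 (5%) lower of 20, beside 12% and 28.8% of all loci, and a median of 0.40. Without single C10 or C18 libraries the HOMER count was 0 to 2 higher and 0 to 1 lower. Meis1, a homeobox gene of stem cells and megakaryocytes, ranked 1732 and 1413 in C10, against 3876 and 4573 in C18 (difference 1.43, SE 0.294, limma adjusted p = 0.00513). Its best peak in C18 replicate 2 lay 94 kb into the gene, while at the start alone the difference was 1.52 (SE 0.347). The HOMER call of Meis1 was lost with distal peaks alone, with peak values in place of ranks, and whenever 1 C10 or C18 library was left out. Hoxb5 was lower, at 30421 and 24041 in C10 against 11303 and 9685 in C18, through a site it shares with Hoxb3, Hoxb4 and Hoxb6 (difference -0.93, SE 0.179, limma adjusted p = 0.00373). Msi2, an RNA-binding protein gene of stem cells, ranked 20020 and 17746 in C10, against 99 and 211 in C18 (difference -7.03). Its C18 peak had a HOMER peak in replicate 1 but none in replicate 2 (chr11:88550502-88551401). The call was lost once F-Seq peaks without a HOMER peak were left out. Ranking among loci turned the F-Seq median to 0.36, with 5 higher and 1 lower of 19, beside 19.9% and 21.3% of all loci.

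Transcription factor loci of blood cells had 5 (13.9%) higher and 8 (22.2%) lower of 36 with F-Seq, beside 13.5% and 33.8% of all loci, and a median of 0.01. HOMER gave 6 higher and 6 lower of 33, and 0 to 3 higher and 3 to 6 lower without single C10 or C18 libraries. Zfpm1, which encodes FOG1, the cofactor of GATA1 in red cells and megakaryocytes, was far lower in C10. It ranked 18156 and 11421 in C10, against 1334 and 944 in C18, with 3348 and 2442 in C2 and 18706 and 18402 in C13. The C10 ranks were thus near those of the CD41- cells and the C18 ranks nearer the top than those of C2. The peak covered the gene start in all 4 libraries and was shared with the locus of Zfp469 (chr8:122280176-122282276 in C10 replicate 1). The difference was -3.68 (SE 0.341, adjusted p = 0.000316) with F-Seq and -3.62 (SE 0.358, adjusted p = 0.00125) with HOMER. Ldb1, a scaffold of the complex that holds GATA1 and TAL1, ranked 17169 and 13829 in C10, against 5233 and 5099 in C18 (difference -1.58, SE 0.211, limma adjusted p = 0.00083), at a peak it shares with Pprc1. Gata2 was lower as well, at 20438 and 19989 in C10 against 12517 and 9875 in C18 (difference -0.85, SE 0.146, limma adjusted p = 0.00243). Without C10 replicate 1 the F-Seq median of the list was 0.01. Ranking among loci gave 10 higher and 4 lower of 31, beside 19.9% and 21.3% of all loci.

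Erythroid loci had 2 (6.25%) higher and 11 (34.4%) lower of 32 with F-Seq, beside 13.5% and 33.8% of all loci. Their median was -0.72, beside -0.32 over all loci. Tfrc, the transferrin receptor that brings iron into red cell precursors, ranked 11594 and 11550 in C10, against 2949 and 2284 in C18. The best peak was at the gene start in every library (chr16:32608387-32609738 in C10 replicate 1), and the difference was -2.16 (SE 0.302, limma adjusted p = 0.000987). Epb41, the membrane skeleton protein 4.1, ranked 4516 and 3645 in C10, against 1187 and 609 in C18, also at its start (difference -2.25, SE 0.393, limma adjusted p = 0.00252). Epb42, protein 4.2 of the same skeleton, ranked 19294 and 20919 in C10, against 6867 and 7113 in C18, but through a peak in the loci of Tmem62 and Ccndbp1. Without C18 replicate 1 the erythroid count was 1 higher and 18 lower, and without C18 replicate 2 it was 5 higher and 9 lower. Ranking among loci gave 5 higher and 5 lower of 24 with F-Seq and a median of -0.11, beside 19.9% and 21.3% of all loci. With distal peaks alone, F-Seq gave 2 higher and 8 lower of 27, beside 8.94% and 18.2% of all loci. The median was then -1.1, beside -0.15 over all loci. With HOMER, 1 (4%) was higher and 9 (36%) lower of 25 in the main fit, beside 12% and 28.8% of all loci. The HOMER median was -0.53, beside -0.30 over all loci.

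Loci of genes that most dividing cells use were lower in C10 in larger shares than the 33.8% of all loci with F-Seq and 28.8% with HOMER. Of 30 cell cycle loci, 18 were lower and 0 higher with F-Seq, and 12 of 28 were lower and 0 higher with HOMER. At an unadjusted p under 0.05, 0 were higher with F-Seq and 0 with HOMER. Top2a, the topoisomerase of dividing cells, ranked 14677 and 15052 in C10, against 2716 and 3152 in C18 (difference -2.34, SE 0.253, limma adjusted p = 0.000418). Ccne1, cyclin E1, ranked 23519 and 24326 in C10, against 3390 and 4615 in C18 (difference -2.34, SE 0.258, limma adjusted p = 0.000443). The C10 and C18 ranks did not overlap at either locus. Without C10 replicate 1 the cell cycle median was -0.79 with F-Seq and -0.61 with HOMER, against -0.97 and -0.89 with all libraries. Ranking among loci gave 1 higher and 7 lower of 25 with F-Seq and a median of -0.16, beside 19.9% and 21.3% of all loci. With HOMER it gave 0 higher and 6 lower of 26, beside 16.7% and 18.3% of all loci.

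Ribosomal protein loci were lower for 20 of 26 and higher for 0 with F-Seq, and lower for 18 of 25 and higher for 0 with HOMER, beside 33.8% and 28.8% lower over all loci. At an unadjusted p under 0.05, 0 were higher with either caller. Their median difference was -1.47. Rpl23 ranked 69468 and 63790 in C10, against 8033 and 5453 in C18, with 17953 and 18961 in C2 and 63864 and 60511 in C13 (difference -1.60 against the rank just after 20000, SE 0.192, limma adjusted p = 0.000561). C10 stood with C13 at this start, and C2 between them and C18. Rpl3 ranked 17942 and 15102 in C10, against 3738 and 2150 in C18 (difference -2.54, SE 0.297, limma adjusted p = 0.000513). Of 20 housekeeping loci, 2 were higher and 13 lower. Polr2a, the large subunit of RNA polymerase II, ranked 31073 and 24025 in C10, against 3044 and 3309 in C18, over its own start in all 4 libraries and shared with Slc35g3 and Zbtb4 (difference -2.66, SE 0.207, limma adjusted p = 0.000257). Without C10 replicate 1 the housekeeping count was 1 higher and 7 lower, and without C10 replicate 2 it was 0 higher and 10 lower. With HOMER 2 were higher and 11 lower, and 1 higher and 4 lower without C10 replicate 1. Ranking among loci left 11 ribosomal protein loci of 22 and 9 housekeeping loci of 20 lower, with medians of -0.46 and -0.50. Over all loci 21.3% were lower in that setting.

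**Figure D4:**
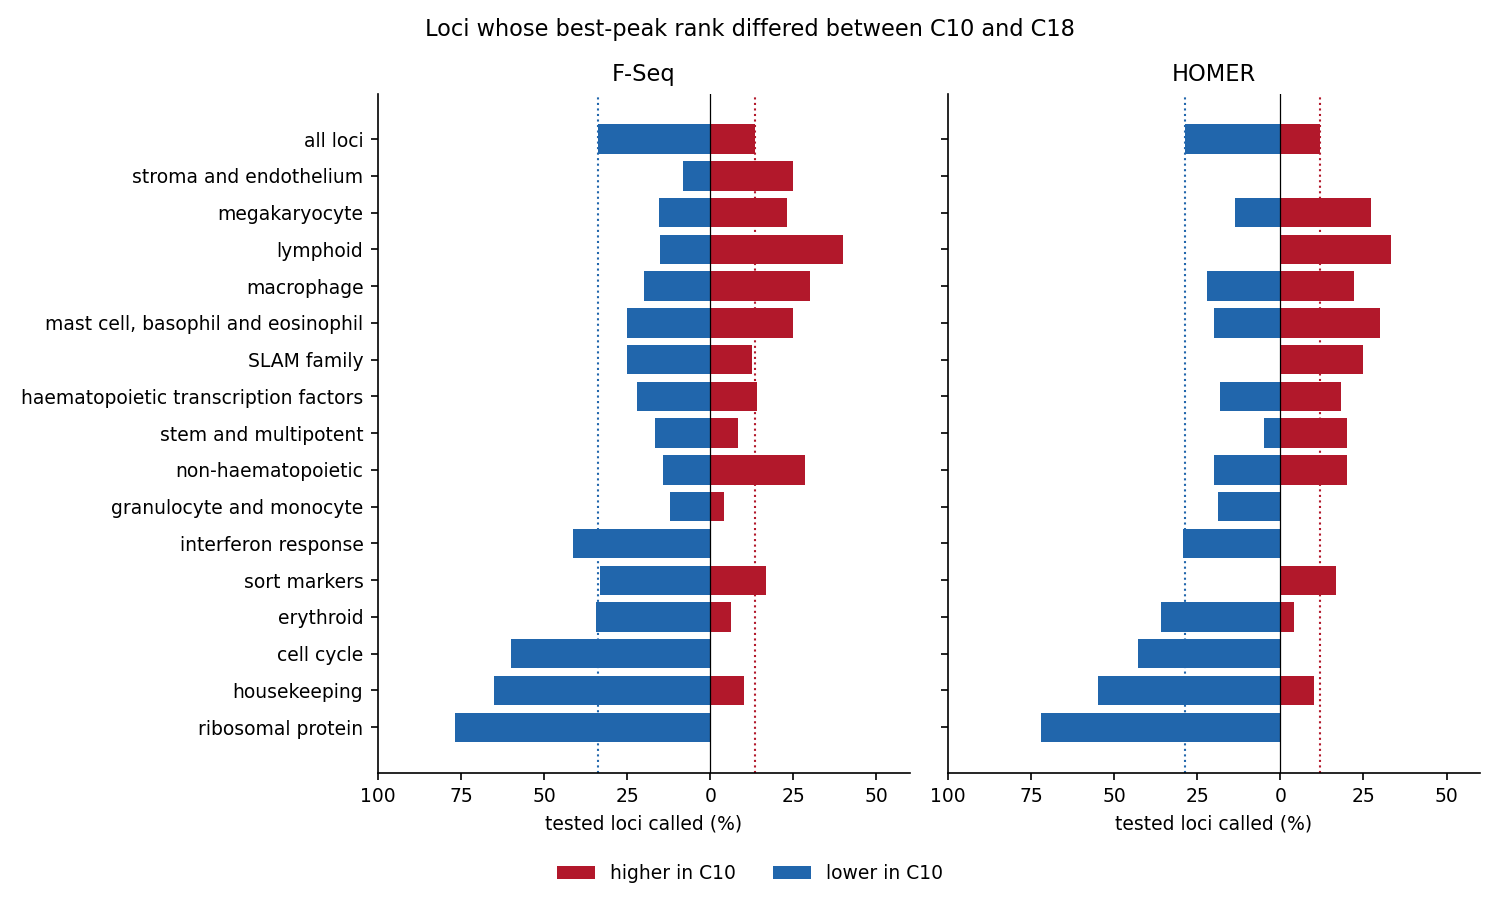
Share of the tested loci of each gene list (x axis, percent) called higher in C10 (red, to the right of 0) or lower in C10 (blue, to the left), with F-Seq and HOMER; dotted lines are the shares over all loci tested (13.5% and 33.8% with F-Seq). Ribosomal protein, housekeeping and cell cycle loci lie beyond the dotted line for lower, at 20 of 26, 13 of 20 and 18 of 30 with F-Seq.

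Lists of other cell types were small, and 13.5% of all loci were higher and 33.8% lower with F-Seq. Granulocyte and monocyte loci had 1 higher and 3 lower of 25, although without C18 replicate 2 they had 1 higher and 11 lower. Cebpe, a factor of late neutrophil development, ranked 8259 and 7170 in C10, against 2734 and 3276 in C18. Mast cell, basophil and eosinophil loci had 3 higher and 3 lower of 12. Among the lower were Srgn (difference -1.61, limma adjusted p = 0.00326) and Gata2, given above. Among the higher were Cpa3 and Prg2. Cpa3, the carboxypeptidase of mast cells, ranked 8381 and 12259 in C10, against 34464 and 30639 in C18, and Prg2, the major basic protein of eosinophils, ranked 5282 and 5854 in C10, against 16782 and 18790 in C18. Macrophage loci had 3 higher and 2 lower of 10, and without single libraries between 1 and 3 higher and between 0 and 2 lower. The scavenger receptor gene Marco ranked 8265 and 6545 in C10, against 33893 and 39871 in C18. Stroma and endothelium had 3 higher and 1 lower of 12 with F-Seq, but 0 higher and 0 lower of 9 with HOMER, where 1 was higher and 0 lower at an unadjusted p under 0.05. Most loci of cell types outside the blood had no peak among the 20000 strongest, since 5 and 5 of 25 had one in C10, against 3 and 7 in C18. Interferon response loci had 0 higher and 7 lower of 17 with F-Seq and 0 higher and 5 lower with HOMER, with 1 and 2 higher at an unadjusted p under 0.05, and shares lower of 41.2% and 29.4% beside 33.8% and 28.8% of all loci. Ranking among loci gave 4 higher and 4 lower of 15 with F-Seq, beside 19.9% and 21.3% of all loci. The part of any of these cell types in the other results was not tested.

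Among loci called higher with the smallest p with both callers were Tespa1, a gene of T cell receptor signalling, and Ptger2, a prostaglandin E2 receptor. Tespa1 ranked 125 and 88 in C10, against 5957 and 6596 in C18, at the edge of the gene (chr10:130322172-130325341 in C10 replicate 1; difference 5.90, SE 0.425, limma adjusted p = 0.00022). Ptger2 ranked 323 and 347 in C10, against 10813 and 12366 in C18, at a site downstream of the gene (chr14:45010612-45012141; difference 5.11, SE 0.362, limma adjusted p = 0.000197). Ppa2, a mitochondrial pyrophosphatase gene, held one of the strongest peaks of the C10 lists, at ranks 4 and 7 in C10, against 567 and 676 in C18. At these 3 loci C2 and C13 ranked between C10 and C18, with Tespa1 at 322 and 660 in C2 and at 247 and 268 in C13. Ccdc39, which had the smallest p of the loci called higher, took its rank from a C10 peak shared with Ttc14 at the edge of its locus (224 and 287 in C10, 14441 and 21229 in C18).

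The loci called lower with the smallest p were of 2 kinds. The first 10 with F-Seq, from Ncoa1 to Msi2, had a best peak without a HOMER peak in at least 1 of the C18 libraries. Ncoa1, a nuclear receptor coactivator gene, ranked 45380 and 36438 in C10, against 3 in both C18 libraries (difference -12.70), and Stac ranked 25141 and 18987 in C10, against 73 and 84 in C18 (difference -7.96). With F-Seq peaks that lack a HOMER peak left out, the difference was 0.00 for Ncoa1 and 0.04 for Stac, and neither passed the test. Others lay at gene starts and were called with both callers. Csnk1g2, a casein kinase 1 gene, ranked 17513 and 11687 in C10, against 285 and 333 in C18 (difference -5.54, SE 0.312, limma adjusted p = 8.61e-05), at a peak shared with Scamp4. Pop7, a subunit of RNase P, ranked 16158 and 14107 in C10, against 664 and 720 in C18, at a peak shared with Gigyf1 (difference -4.45, SE 0.257, limma adjusted p = 8.61e-05). Kntc1, a kinetochore protein gene, ranked 23505 and 21210 in C10, against 1461 and 1437 in C18, at a peak shared with Rsrc2. At each of these starts C2 lay between, at 2209 and 1720 for Csnk1g2, and C13 stood further down than C10, at 23826 and 23654 for Csnk1g2.

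Base composition went with the difference at gene starts. Starts were grouped by the GC share of their RefSeq promoter window, 250 bases before to 50 bases after the start. Of 276 tested starts with windows of at most 45% GC, 21.4% were higher and 11.2% lower in C10, with a median difference of 0.04. Of 1536 with 65% to 70% GC, 5.79% were higher and 47.6% lower, with a median of -0.75. HOMER gave medians of 0.02 and -0.78 for the same classes. Windows under regions of C10 alone had a median of 56.0% GC and 12 CpG (200 windows), while those under regions of C18 alone had 63.0% GC and 25 CpG (1454 windows), against 56.3% and 13 over all 21262 windows. Windows under regions of all 4 libraries had 61.0% GC and 21 CpG (6432 windows). The part of base composition in the other results was not tested.

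**Figure D5:**
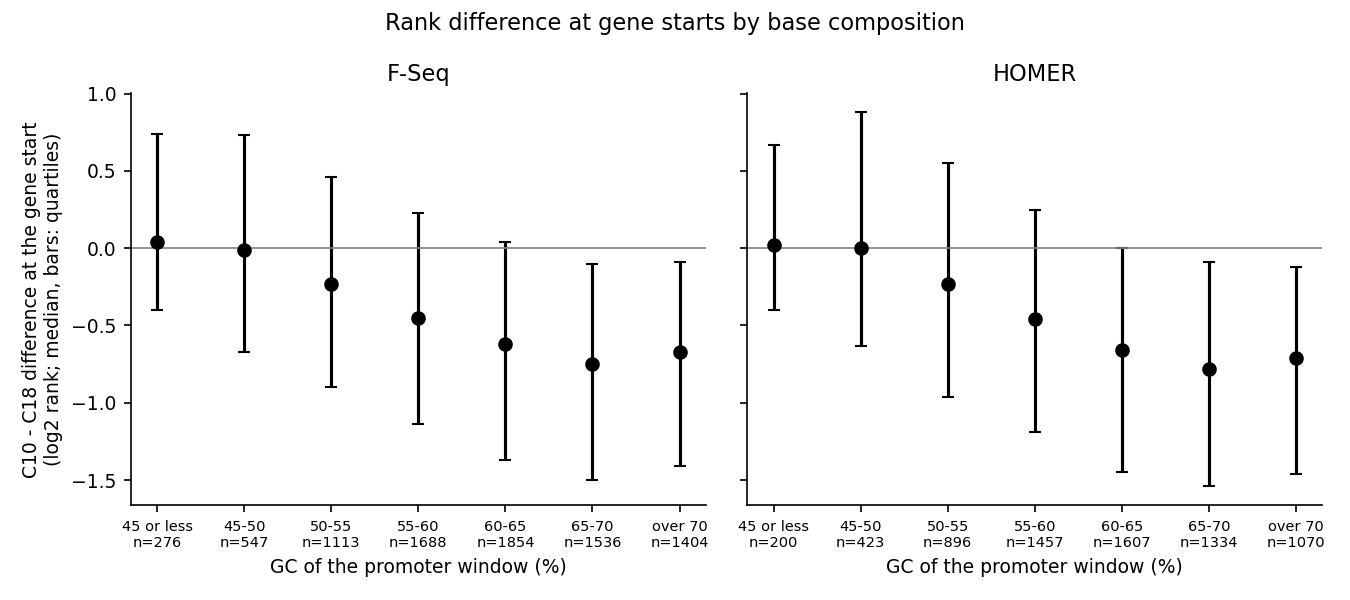
Difference C10 minus C18 in the log2 rank of the best peak within 1 kb of a gene start (y axis) by the GC share of the promoter window (x axis, with the number of starts), for F-Seq and HOMER; points are medians and bars run between the quartiles. The F-Seq medians run between 0.04 at 45% GC or less and -0.75 at 65% to 70% GC.

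Letters of known motifs were counted in the same windows on both strands, as a description. The ETS letters CCGGAAG were in 6.5% of windows under regions of C10 alone, 23.9% under regions of C18 alone, 21.7% under regions of all 4 libraries and 11.6% of all windows. The SP letters GGGCGG were in 48.5% for C10 alone, 70.6% for C18 alone, 66.9% for all 4 libraries and 46.2% of all windows. The GATA letters AGATAA were in 20 of 200 windows for C10 alone. They were in 4.95% for C18 alone, 5.69% for all 4 libraries and 9.65% of all windows. The E-box letters CAGATG were in 19.5% for C10 alone, 7.98% for C18 alone, 10.9% for all 4 libraries and 14.6% of all windows. Base composition of the windows differed as well, and its part in these shares was not tested. Motifs were not counted in distal regions, for which no genome of this build was used.

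The 250 bases before the start are shown for loci of each direction whose best peaks lay within 1 kb of their own start (in C18 replicate 2, Il7r had no listed peak there), from RefSeq on GRCm38.p6, the assembly of mm10, 5′ to 3′ on the gene's strand, with each CpG in capitals. They were chosen after their values were seen. Of those shown, 3 were higher in C10: Cpa3 (chr3:20242182-20242431, minus strand), Il7r (chr15:9529877-9530126, minus strand) and Gata3 (chr2:9878601-9878850, minus strand).
Cpa3: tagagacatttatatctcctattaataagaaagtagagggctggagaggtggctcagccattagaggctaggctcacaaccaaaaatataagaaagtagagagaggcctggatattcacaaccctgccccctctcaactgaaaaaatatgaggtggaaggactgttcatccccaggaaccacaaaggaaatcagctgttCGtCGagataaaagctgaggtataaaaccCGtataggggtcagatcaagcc
Il7r: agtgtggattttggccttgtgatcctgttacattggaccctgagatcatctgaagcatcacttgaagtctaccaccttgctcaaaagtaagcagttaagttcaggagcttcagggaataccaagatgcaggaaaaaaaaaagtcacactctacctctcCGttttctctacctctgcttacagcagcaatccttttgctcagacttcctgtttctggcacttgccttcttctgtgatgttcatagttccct
Gata3: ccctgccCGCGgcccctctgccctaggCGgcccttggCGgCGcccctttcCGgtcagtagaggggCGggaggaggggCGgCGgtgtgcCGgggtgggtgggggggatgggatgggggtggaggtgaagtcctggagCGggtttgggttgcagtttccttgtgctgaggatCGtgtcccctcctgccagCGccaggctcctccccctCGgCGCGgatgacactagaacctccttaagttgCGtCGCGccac
The Cpa3 and Il7r sequences had 44.4% and 44.0% GC with 3 and 1 CpG, while that of Gata3 had 19 CpG. The other 3 were lower in C10: Polr2a (chr11:69758634-69758883, minus strand), Tfrc (chr16:32608646-32608895, plus strand) and Top2a (chr11:99024190-99024439, minus strand).
Polr2a: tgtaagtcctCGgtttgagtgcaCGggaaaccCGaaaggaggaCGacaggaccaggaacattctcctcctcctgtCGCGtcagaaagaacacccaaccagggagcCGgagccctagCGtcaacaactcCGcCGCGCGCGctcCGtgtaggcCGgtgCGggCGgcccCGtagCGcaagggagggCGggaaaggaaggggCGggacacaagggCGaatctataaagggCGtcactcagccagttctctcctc
Tfrc: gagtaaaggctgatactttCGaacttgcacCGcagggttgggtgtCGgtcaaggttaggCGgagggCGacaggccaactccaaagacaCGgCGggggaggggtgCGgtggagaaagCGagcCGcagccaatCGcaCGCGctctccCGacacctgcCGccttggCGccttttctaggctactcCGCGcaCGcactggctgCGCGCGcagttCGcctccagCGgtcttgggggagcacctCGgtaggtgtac
Top2a: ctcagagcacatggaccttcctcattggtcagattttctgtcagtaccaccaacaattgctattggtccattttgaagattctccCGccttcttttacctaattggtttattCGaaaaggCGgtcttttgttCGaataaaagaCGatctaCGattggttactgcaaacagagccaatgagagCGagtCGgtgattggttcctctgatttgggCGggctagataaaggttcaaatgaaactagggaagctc
The Polr2a and Tfrc sequences had 62.8% and 64.8% GC with 23 and 25 CpG, while that of Top2a had 43.6% GC with 9 CpG. At the start alone, the differences were 0.98 (SE 0.192) for Cpa3, 0.91 (SE 0.203) for Il7r and 2.13 (SE 0.377) for Gata3, and -2.66 (SE 0.214) for Polr2a, -2.16 (SE 0.304) for Tfrc and -2.34 (SE 0.258) for Top2a, with limma adjusted p-values between 0.000322 and 0.00675.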

How the data were processed

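ATAC-seq was made from sorted cells with TDE1 transposase and digitonin, per the labels' protocols. Per the submitters' processing notes, Bowtie 1.0.0, HOMER 1.0 and mm10 were used; no version of F-Seq was stated. The authors deposited a signal value per F-Seq peak (column 7) and scores per HOMER peak (columns 4 and 5), whose HOMER columns carry no names. Only the order of peaks within a library was used. Gene bodies and promoter windows came from RefSeq tables on GRCm38.p6. The best rank of each of 21883 protein-coding loci was fitted on a log2 scale with limma 3.58.1 (R 4.3.3) over 8 libraries, for loci with a peak among the 20000 strongest in at least 2, with Benjamini-Hochberg adjustment over all loci. Python 3.11.15 did the rest. The fit was tested on simulated data with few loci shifted and noise set from the observed spread. Of 50 loci shifted by 1 unit, 4 were recovered with F-Seq and 0 with HOMER. At 2 units these were 28 and 15, and at 3 units 47 and 43. False calls were 11 of 139 with F-Seq and 6 of 114 with HOMER. In that run 139 loci were called with F-Seq, against 1961 higher and 4907 lower in the data. With HOMER 114 were called, against 1536 higher and 3692 lower in the data. Recovery of shifts of 1 or 2 units in the data themselves was not tested. A locus that did not pass can still differ. The text names, per caller, the 12 loci with the smallest p in each direction, sort marker genes, the 4 members with the smallest p of each list and the 10 strongest regions of each population; the text describes a selection of these. Members and lists were chosen with earlier results of these data known. Nothing in the labels pairs libraries by replicate number, and the number was not used as a block. Ranking among loci, distal peaks alone, merged HOMER peaks, peak midpoints and the removal of F-Seq peaks without a HOMER peak were alternatives chosen after seeing the data.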

Additional observations from a re-analysis of the deposited data

How the results depend on the processing

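Over all alternatives, the number of loci lower in C10 stayed above the number higher with both callers. With F-Seq, 824 loci were higher within 1 kb of gene starts, and 1020 were higher and 2082 lower with distal peaks alone, while ranking among loci gave 2431 lower. With HOMER, 2776 were higher with every listed peak, 573 higher and 2427 lower within 1 kb of starts, 1913 lower with gene bodies alone, 806 higher and 1702 lower with distal peaks alone, and 2097 lower with ranking among loci. Leaving out each of 8 libraries in turn gave 1071 to 1883 higher and 3086 to 4726 lower with F-Seq, and 768 to 1462 higher and 1938 to 3570 lower with HOMER. With the replicate number as a block there were 2160 higher and 5151 lower with F-Seq and 1588 higher and 3838 lower with HOMER. Fitting the 4 libraries alone gave 1729 higher and 4331 lower with F-Seq and 1332 higher and 3132 lower with HOMER. Deviations of same-numbered libraries had a correlation over loci of 0.0508 between C10 and C18, and of 0.000273 to 0.431 over the 6 pairs of populations, with 0.431 between C10 and C13. Regions of C10 alone numbered 2180 with 10000 peaks per library and 5807 with 40000. Leaving out a library gave 4625 to 5252 regions of C10 alone and 3153 to 5863 of C18 alone (5863 without C18 replicate 1, 5250 without C18 replicate 2), where fewer libraries had to hold a region. Of 4636 values of named loci under an alternative, 4370 kept their side of the threshold, 175 no longer passed and 75 newly passed. The 4370 include changes of sign where neither value passed, as for Cd9 with F-Seq (-0.52 to 0.27 over its alternatives). Another 16 changed sign where the main or the alternative value passed. With F-Seq these were Itga2b at 0.39 (1 kb around the start), Plek at -0.38, Epb42 at 0.26, Ccr2 at -0.77, Srgn at 0.96 and Tap1 at 0.09 (loci extended by 50 kb), Axl at 1.05 (distal peaks) and Stac at 0.04 (F-Seq peaks without a HOMER peak left out). With HOMER they were Axl at 0.35 (gene body) and 0.17 (column 5), Plek at -1.11, Epb42 at 0.67, Srgn at 0.46, Slc40a1 at 1.54 and Tap1 at 0.16 (50 kb), and Psmb9 at 0.03 (distal peaks). The cause was not tested. The lists hold no counts, so the limit set by depth is unknown.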
